A study of Mus musculus with 4 samples.

Results

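The genes described here are the 13 protein genes of the mouse mitochondrial genome (symbols beginning mt-) and the 37 nuclear genes whose symbols begin Ndufa, Ndufb, Ndufc, Ndufs or Ndufv followed by a number. They are 50 of the 18695 genes in the count table and were chosen by symbol alone. In the Nduf group, 2 symbols do not name complex I subunits in current usage. *Ndufa4* encodes a subunit of complex IV, and *Ndufa4l2*, a relative of it, had 4 UMIs in all libraries together. The remaining 35 Nduf genes encode subunits of complex I. RNA was measured by droplet scRNA-seq in bone marrow cells of 2 mice, and each mouse gave 2 libraries. One mouse was Mx1-Cre *Tet2* fl/fl (*Tet2* KO), and the other was a Cre-negative *Tet2* fl/fl littermate control, called WT here. Mx1-Cre is driven by an interferon-responsive promoter, and pI:pC was given to both genotypes (12.5 ug/g, in 4 doses), which induces interferon and with it Cre. From each mouse, granulocyte-monocyte progenitors (GMP, Lin- cKit+ Sca1- CD34+ CD16/32+) went into one library, and CD11b+ cells joined with Lin- progenitors (called the Lin-/CD11b+ sort) into another. By the study's methods the mice were age-matched young adults.

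Complex I passes electrons from NADH to ubiquinone and pumps protons across the inner mitochondrial membrane. It is built from the products of 2 genomes. The mitochondrial genome supplies the 7 hydrophobic mt-Nd subunits of its membrane arm, while the nucleus supplies the core subunits that carry the flavin and the iron-sulphur clusters and a larger set of accessory subunits around them. The other mt- genes encode cytochrome b of complex III (mt-Cytb), the catalytic core of complex IV (mt-Co1, mt-Co2 and mt-Co3) and 2 subunits of the ATP synthase (mt-Atp6 and mt-Atp8). The mt- genes are transcribed as long precursors from promoters in the organelle and are cut into shorter RNAs, and the Nduf genes are transcribed one by one in the nucleus. In blood formation, stem cells are known to rely less on oxidative phosphorylation than the progenitors they give rise to, and mature neutrophils are known for sparse mitochondria.

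There was 1 library per genotype and sort, so no test between genotypes could be made, and genotype, mouse and preparation cannot be told apart. Intervals are at the 95% level and cover nothing beyond counting error. The 2 sorts of a genotype came from the same mouse, so they are not independent. The libraries held 1258 cells (WT GMP), 2719 cells (*Tet2* KO GMP), 1924 cells (WT Lin-/CD11b+) and 3068 cells (*Tet2* KO Lin-/CD11b+), with 22681380 to 42561110 UMIs each and a median of 10417 to 18713 UMIs per cell. Pairs of libraries shared 4 to 8 cell barcodes. *Tet2* itself was counted at 13 CPM (WT GMP), 17 CPM (*Tet2* KO GMP), 13.4 CPM (WT Lin-/CD11b+) and 20.7 CPM (*Tet2* KO Lin-/CD11b+). UMIs are read near the 3′ end of a transcript and do not show whether the floxed part is present, so they are no check of the genotype. Cell numbers in the study's supplement for the WT Lin-/CD11b+ and *Tet2* KO GMP libraries are exchanged relative to the deposited table. The deposited assignment was used, in which the library labelled *Tet2* KO GMP had 0 neutrophil-like cells and the one labelled WT Lin-/CD11b+ had 173.

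Each cell was given the marker class in which its standardised marker level was highest, without use of any mt- or Nduf gene. At least 3 detected markers were required. The classes are therefore ranges of a score, and 920 of 8969 cells (10.3%) lay within 0.1 score units of a second class. The 10 classes described each had more of their own markers than of any other class among their 10 leading genes. The 2 GMP-like classes shared 4 markers, as *Mpo*, *Prtn3*, *Elane* and *Ctsg* stand in both marker lists. The neutro-biased list had a median of 156 UMIs per 10000 in mono-biased and 288 in neutro-biased cells, and the mono-biased list had 197 and 307, so it was not highest in its own class. Cells with the highest erythroid score were led by basophil markers, and they were left unnamed. A level is given as CPM, the UMIs of a gene or group scaled to counts per 1e6 UMIs of the cells summed. In summed cells, a lower level in each cell and fewer cells with a high level cannot be told apart.

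Some mt- genes overlap on the mitochondrial genome, which matters for assigning single UMIs to them. In GENCODE M21 (GRCm38), the 13 genes lie between chrM:2751-15288, and mt-Nd6 alone is on the minus strand. mt-Atp8 (chrM:7766-7969) shares its last 43 bases with the start of mt-Atp6 (chrM:7927-8607), and mt-Nd4l (chrM:9877-10173) shares its last 7 bases with the start of mt-Nd4 (chrM:10167-11544). Both short genes are printed 5′ to 3′ from the GENCODE transcripts, since over all cells mt-Nd4l had the largest log2 difference between genotypes among mt- genes in the GMP sort and mt-Atp8 in the Lin-/CD11b+ sort, and capitals mark the bases shared with the gene that follows.
mt-Atp8: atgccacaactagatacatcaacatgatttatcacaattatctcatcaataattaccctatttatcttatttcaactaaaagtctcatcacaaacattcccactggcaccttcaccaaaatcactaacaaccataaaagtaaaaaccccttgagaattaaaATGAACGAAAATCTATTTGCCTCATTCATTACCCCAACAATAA
mt-Nd4l: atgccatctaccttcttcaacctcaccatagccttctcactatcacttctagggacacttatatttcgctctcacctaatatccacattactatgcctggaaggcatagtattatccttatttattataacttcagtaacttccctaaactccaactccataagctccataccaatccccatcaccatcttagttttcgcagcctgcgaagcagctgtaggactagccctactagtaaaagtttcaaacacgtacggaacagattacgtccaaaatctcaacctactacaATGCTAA
A UMI in the capital bases could belong to either gene, and counts of mt-Atp8 and mt-Nd4l carry that uncertainty. Nor do the counts show whether UMIs of overlapping neighbours come from the same RNA or from separate RNAs. Values for mt-Atp8 and mt-Nd4l are therefore counts at these positions and not measured levels of separate transcripts. mt-Nd5 and mt-Nd6 overlap by 14 bases on opposite strands.

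Summed over all cells, the mt- genes took 27064 CPM in WT GMP, 26344 CPM in *Tet2* KO GMP, 23059 CPM in WT Lin-/CD11b+ and 24073 CPM in *Tet2* KO Lin-/CD11b+ cells. The summed Nduf genes took 11186, 12649, 9649 and 10713 CPM in the same order. The mt- level was therefore slightly lower in the *Tet2* KO library of one sort and slightly higher in that of the other, while the Nduf level was higher in the *Tet2* KO library of both. The mt- log2 ratios, -0.04 (GMP) and 0.06 (Lin-/CD11b+), stood beside all-gene medians of -0.05 and 0.08. Neutrophil-like and plasma cell-like cells, low in mt- CPM, were 8.99% and 8.52% of WT and 6.49% and 6.55% of *Tet2* KO Lin-/CD11b+ cells. The part of this mix in the sums was not tested. The log2 ratio of mt- to Nduf UMIs was 1.27 in WT GMP, 1.06 in *Tet2* KO GMP, 1.26 in WT Lin-/CD11b+ and 1.17 in *Tet2* KO Lin-/CD11b+ cells, with counting intervals that did not overlap between the genotypes of a sort. This ratio does not depend on the library total. It is used only to compare cells and libraries, since the 2 groups differ in gene number, capture and length.

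The level of both groups differed between cell types. In the WT Lin-/CD11b+ library, the Nduf sum was 9698 CPM in stem and early progenitor-like, 11330 CPM in mono-biased GMP-like and 12420 CPM in neutro-biased GMP-like cells. The sum was 10544 CPM in monocyte-like and 6851 CPM in neutrophil-like cells. Both GMP-like classes were higher than the stem-like class beyond counting error in each of the 4 libraries. Neutro-biased cells were higher than mono-biased cells in all 4 as well, with overlapping intervals in *Tet2* KO GMP. The mt- sum was 23878, 26510, 25932.5 and 25035 CPM in the first 4 of these types and was 12843 CPM in neutrophil-like cells. In the *Tet2* KO Lin-/CD11b+ library, the Nduf sum ran from 10113 CPM (stem and early progenitor-like) to 12887 CPM (neutro-biased GMP-like) and was 8306 CPM in neutrophil-like cells, with 17498.5 CPM of mt- transcripts. Dendritic cell-like and basophil and mast-like classes lay between 8718 and 10589 CPM for Nduf and between 21695 and 26013 CPM for mt- genes in the Lin-/CD11b+ libraries. Lymphocyte-like cells, with 84 in the *Tet2* KO Lin-/CD11b+ library, had 26840 CPM of mt- and 10474 CPM of Nduf transcripts.

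**Figure D1:**
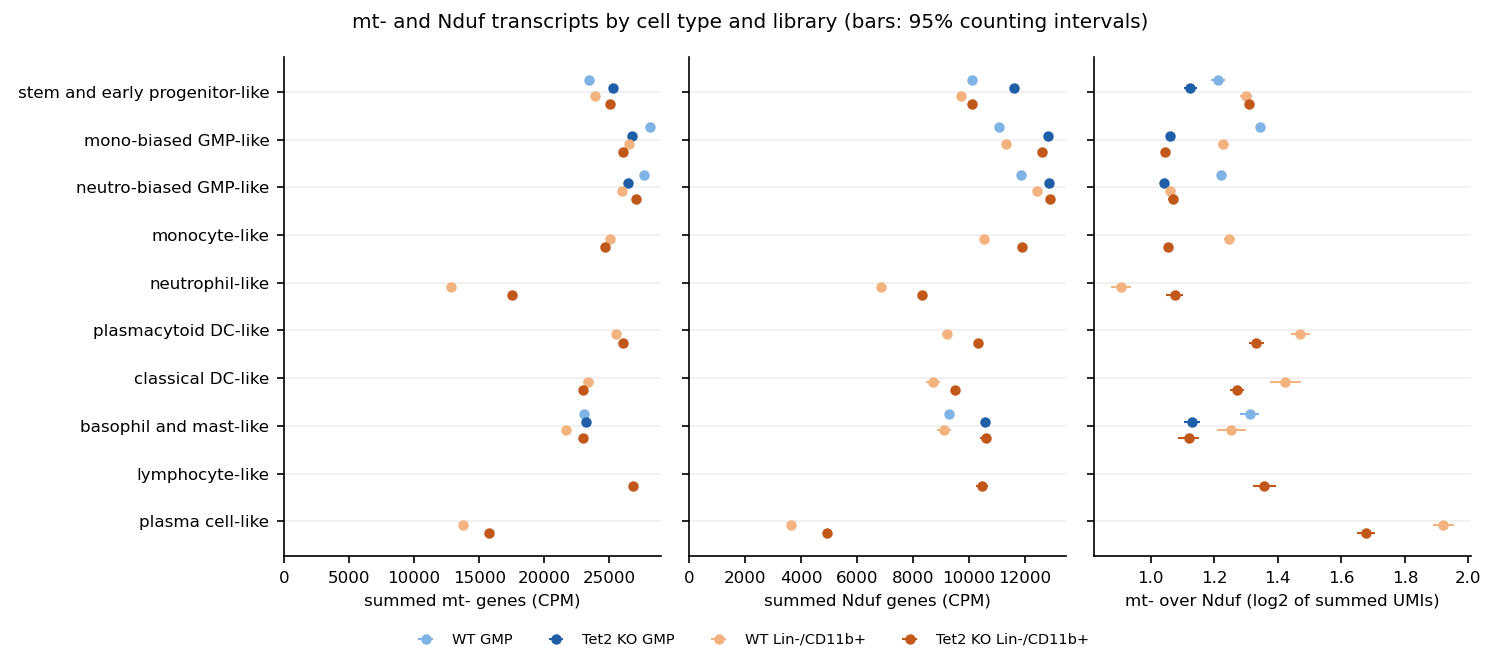
Summed mt- CPM, summed Nduf CPM and their log2 ratio (x axes) for each marker-gated cell type (y axis) with at least 50 cells in a library, with 1 point per library and 95% counting intervals, most of them smaller than the points. Neutrophil-like and plasma cell-like cells had the lowest sums, and plasma cell-like cells had the highest ratio in both Lin-/CD11b+ libraries.

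The types kept no single order by ratio. In WT Lin-/CD11b+ cells the log2 ratio was 0.91 in neutrophil-like, 1.06 in neutro-biased GMP-like, 1.23 in mono-biased GMP-like, 1.248 in monocyte-like, 1.254 in basophil and mast-like, 1.30 in stem and early progenitor-like, 1.42 in classical DC-like, 1.47 in plasmacytoid DC-like and 1.92 in plasma cell-like cells. Monocyte-like, mono-biased GMP-like and basophil and mast-like cells had overlapping intervals. In *Tet2* KO Lin-/CD11b+ cells, mono-biased GMP-like, monocyte-like, neutro-biased GMP-like and neutrophil-like cells lay together at 1.05, 1.06, 1.07 and 1.07, with overlapping intervals. Basophil and mast-like cells followed at 1.12, classical DC-like cells at 1.27, stem and early progenitor-like cells at 1.31, plasmacytoid DC-like cells at 1.33 and lymphocyte-like cells at 1.36, and plasma cell-like cells were again highest at 1.68.

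Neutrophil-like and plasma cell-like cells spend many of their UMIs on a few transcripts, and CPM of all other genes is lowered with it. In neutrophil-like cells, *S100a8*, *S100a9*, *Camp*, *Ltf* and *Ngp*, which encode calprotectin and granule proteins, took 37.4% (WT) and 30.6% (*Tet2* KO) of UMIs. In plasma cell-like cells, immunoglobulin genes and *Jchain* took 66.5% (WT) and 57.0% (*Tet2* KO). With these transcripts left out of the total, neutrophil-like cells had 10976 CPM (WT) and 11984 CPM (*Tet2* KO) of Nduf transcripts, and plasma cell-like cells had 10953 and 11559 CPM, values inside the range of the other types. Their mt- levels on this scale were 20576 and 25246 CPM in neutrophil-like cells and 41481 and 36952 CPM in plasma cell-like cells. On this scale plasma cell-like cells stood out by their mt- level, not by their Nduf level, in both libraries. This scale was chosen after the data were seen.

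The summed Nduf level, as a share of UMIs, was higher in *Tet2* KO than in WT cells in each of the 13 pairs of cell type and sort with at least 50 cells in both libraries. The log2 ratio of the summed Nduf CPM, *Tet2* KO over WT, ran from 0.05 to 0.44, and its interval lay above 0 in 13 of 13. The 0.44 came from plasma cell-like cells, in which the median over all genes was 0.34 and the mt- ratio 0.20, and outside immunoglobulin, granule and S100 transcripts their Nduf level was 10953 CPM (WT) and 11559 CPM (*Tet2* KO) while their mt- level was lower in *Tet2* KO cells. Neutrophil-like cells had the next highest Nduf ratio, 0.28, with a median of 0.19 over all genes. The summed mt- CPM had an interval above 0 in 7 pairs and below 0 in 4, with log2 ratios from -0.07 to 0.45. The mt- to Nduf ratio was lower in *Tet2* KO cells in 10 of 13 pairs, each with an interval below 0. It was higher beyond its interval in 1, neutrophil-like cells. The pairs share their libraries, so these counts are not independent observations of a genotype.

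**Figure D2:**
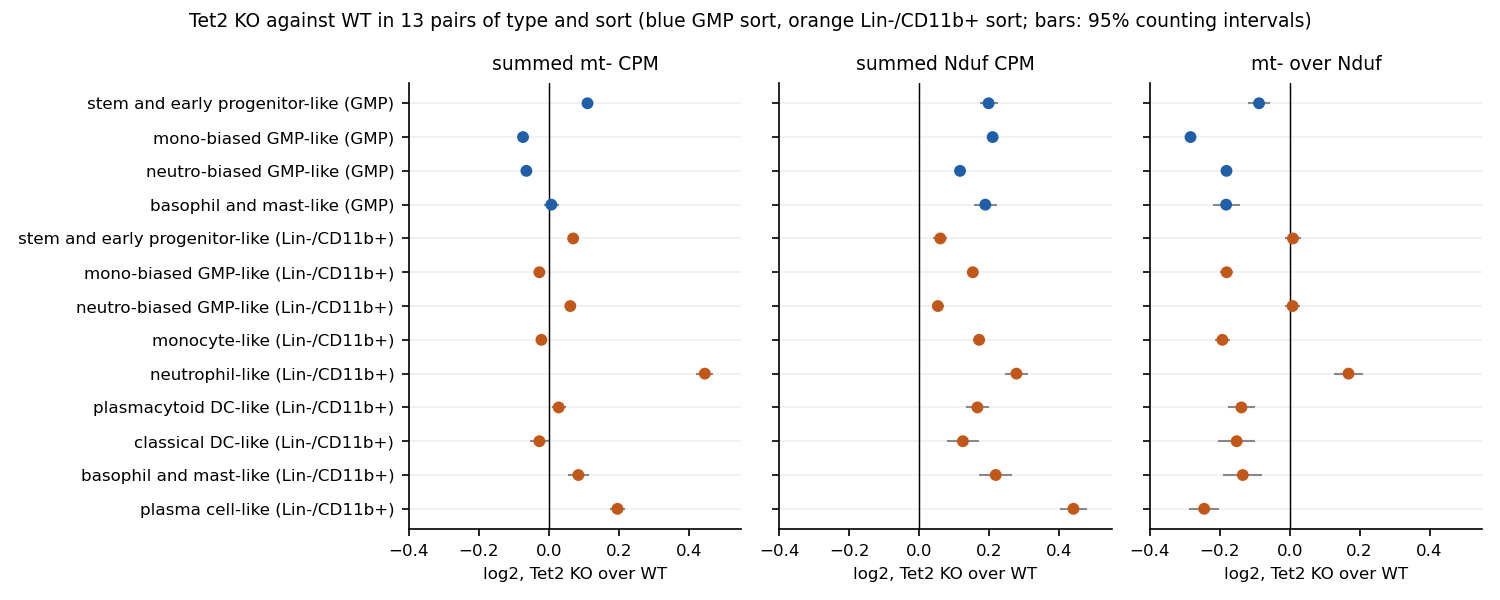
Log2 ratio, *Tet2* KO over WT (x axes), of the summed mt- CPM (left), the summed Nduf CPM (middle) and the mt- to Nduf ratio (right) in 13 pairs of cell type and sort (y axis), with 95% counting intervals. The Nduf points all lie above 0, from 0.05 to 0.44, and the mt- points lie on both sides of 0.

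The largest difference in the ratio among the 5 main comparisons was found in the GMP sort, among mono-biased GMP-like cells. The mt- level there was 28106.5 CPM in WT and 26709 CPM in *Tet2* KO cells, a log2 ratio of -0.07 (-0.08 to -0.07). The Nduf level was 11069 CPM in WT and 12803 CPM in *Tet2* KO cells, a log2 ratio of 0.21 (0.20 to 0.22). The difference in the log2 mt- to Nduf ratio was -0.28 (-0.30 to -0.27), and in the same class of the Lin-/CD11b+ sort it was -0.18 (-0.20 to -0.16). In neutro-biased GMP-like cells of the GMP sort, the mt- level was 27648 CPM in WT and 26447.5 CPM in *Tet2* KO cells, and the Nduf level was 11857 and 12856 CPM. The Nduf log2 ratio was 0.12 (0.11 to 0.13), and the mt- to Nduf difference was -0.18 (-0.19 to -0.17). In the Lin-/CD11b+ sort this class showed a difference of 0.01 (-0.01 to 0.03), so the lower ratio was not seen in both sorts.

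Monocyte-like cells had mt- levels of 25035 CPM in WT and 24672 CPM in *Tet2* KO cells. Their Nduf levels were 10544 and 11874 CPM, a log2 ratio of 0.17 (0.15 to 0.19), and the mt- to Nduf difference was -0.19 (-0.21 to -0.17). In stem and early progenitor-like cells of the Lin-/CD11b+ sort the ratio did not differ beyond counting error. Their mt- levels were 23878 CPM in WT and 25061 CPM in *Tet2* KO cells, their Nduf levels 9698 and 10113 CPM, and the mt- to Nduf difference was 0.01 (-0.01 to 0.03). In the GMP sort this class held 110 WT and 152 *Tet2* KO cells and gave -0.09 (-0.12 to -0.06).

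Cells with many mt- UMIs bore on the GMP comparison. The share of mt- UMIs per cell had a median of 2.45% (WT GMP), 2.44% (*Tet2* KO GMP), 2.31% (WT Lin-/CD11b+) and 2.36% (*Tet2* KO Lin-/CD11b+). The 95th percentile was 8.08%, 5.74%, 3.80% and 3.85% in the same order. The medians were thus alike and the upper tail was longest in the WT GMP library. A limit of 5% on this share is part of the stated cell filter, and the deposited counts still hold 116, 180, 44 and 73 cells at or over it, which is 9.22% (7.68 to 10.96), 6.62% (5.71 to 7.62), 2.29% (1.67 to 3.06) and 2.38% (1.87 to 2.98) of the libraries (exact binomial intervals). These cells had a median of 6690 to 7543 UMIs, against 10516 to 19328.5 in the other cells of their libraries. Their *Malat1* level, a nuclear RNA, had a median of 88.2 to 131 UMIs per 10000, against 46.7 to 78.8 in the others, and the comparisons were repeated without these cells.

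Without them, the mt- level of the 2 GMP libraries was 24623 CPM (WT) and 24651 CPM (*Tet2* KO), and the Nduf level was 11202 and 12669 CPM. The mt- levels of the GMP sort were then alike, and the Nduf levels differed as before. In mono-biased GMP-like cells the mt- to Nduf difference was -0.27 without them. For neutro-biased GMP-like cells the value was -0.09 in place of -0.18, and for neutrophil-like cells 0.10 in place of 0.17. With all cells kept and equal weight for each cell, the value for neutro-biased GMP-like cells was -0.35. The share of Nduf UMIs per cell had a median of 1.11% (WT GMP), 1.26% (*Tet2* KO GMP), 0.997% (WT Lin-/CD11b+) and 1.07% (*Tet2* KO Lin-/CD11b+), and its 5th percentile was 0.771%, 0.956%, 0.321% and 0.490% in the same order.

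**Figure D3:**
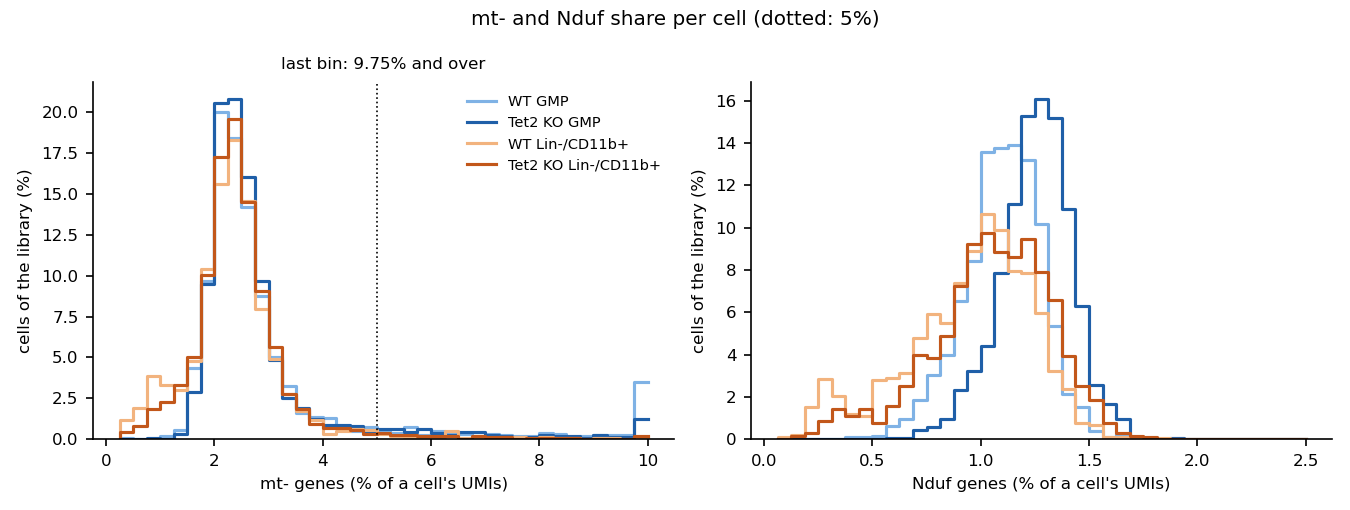
Percentage of the cells of each library (y axes) by the share of their UMIs from mt- genes (left) and from Nduf genes (right), with the 5% limit dotted and the highest shares pooled in the last mt- bin. The mt- curves have their peaks together between 2% and 3%, and the Nduf curve of *Tet2* KO GMP cells lies to the right of that of WT GMP cells.

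Within a type, cells with a higher mt- share did not in general have a higher Nduf share. Spearman's rho between the 2 shares across cells ran from -0.19 to 0.10 in the progenitor and monocyte-like classes of the main comparisons, over 256 to 1386 cells. In neutrophil-like cells it was 0.50 (173 WT cells) and 0.53 (199 *Tet2* KO cells). The mt- share was lower in cells with more UMIs in both GMP-like classes of the GMP sort, with rho between -0.62 and -0.46, and both shares have that total as their denominator.

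Single mt- genes did not all follow their sum. *mt-Nd3*, whose product is a membrane-arm subunit of complex I, was at 225 CPM in WT GMP, 169 CPM in *Tet2* KO GMP, 191 CPM in WT Lin-/CD11b+ and 199 CPM in *Tet2* KO Lin-/CD11b+ cells. *mt-Nd4l*, the smallest mt-Nd subunit, was at 101, 72.4, 75.2 and 72.7 CPM in the same order. *mt-Nd5*, one of the proton-pumping subunits, was at 235, 188, 188 and 172 CPM. The WT GMP library was thus the high one for all 3 genes. Over all cells of the GMP sort, the log2 ratios of *Tet2* KO over WT were -0.41 for *mt-Nd3*, -0.49 for *mt-Nd4l*, -0.32 for *mt-Nd5* and -0.18 for *mt-Nd2*, and in the Lin-/CD11b+ sort they were 0.06, -0.05, -0.13 and 0.04. Without the cells at or over 5% mt- UMIs the values of the GMP sort were -0.37, -0.43, -0.29 and -0.15. In the GMP sort, *mt-Nd3* was lower in *Tet2* KO cells of 4 of 4 types, with -0.19 in stem and early progenitor-like, -0.40 in mono-biased GMP-like, -0.45 in neutro-biased GMP-like and -0.48 in basophil and mast-like cells.

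Over all cells of a sort, the abundant mt- genes differed less. *mt-Atp6* was at 6885 CPM in WT GMP, 6688 CPM in *Tet2* KO GMP, 5431 CPM in WT Lin-/CD11b+ and 5638 CPM in *Tet2* KO Lin-/CD11b+ cells. *mt-Co3* was at 5501, 5714, 4983 and 5160 CPM, and *mt-Co1* at 4129, 3971, 4136 and 4399 CPM. *mt-Cytb* was at 2880, 2913, 2322 and 2471 CPM, *mt-Co2* at 2597, 2429, 2159 and 2266 CPM, and *mt-Nd1* at 2387, 2266, 1831 and 1884 CPM. Over all cells these 6 genes differed between genotypes of a sort by at most 0.10 in log2. By type they did not all stay within that size, with 0.31 to 0.55 in neutrophil-like cells and -0.16 to 0.04 in both GMP-like classes of the GMP sort. *mt-Nd4* was at 1426, 1307, 1111 and 1178 CPM and *mt-Nd2* at 627, 556, 540 and 556 CPM. *mt-Atp8* was level in the GMP sort (58.1 and 58.1 CPM) and lower with *Tet2* KO in the Lin-/CD11b+ sort (80.2 and 64.8 CPM), a log2 ratio of -0.31. *mt-Nd6*, the gene on the minus strand, had 10.6 to 13.8 CPM in the 4 libraries.

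**Figure D4:**
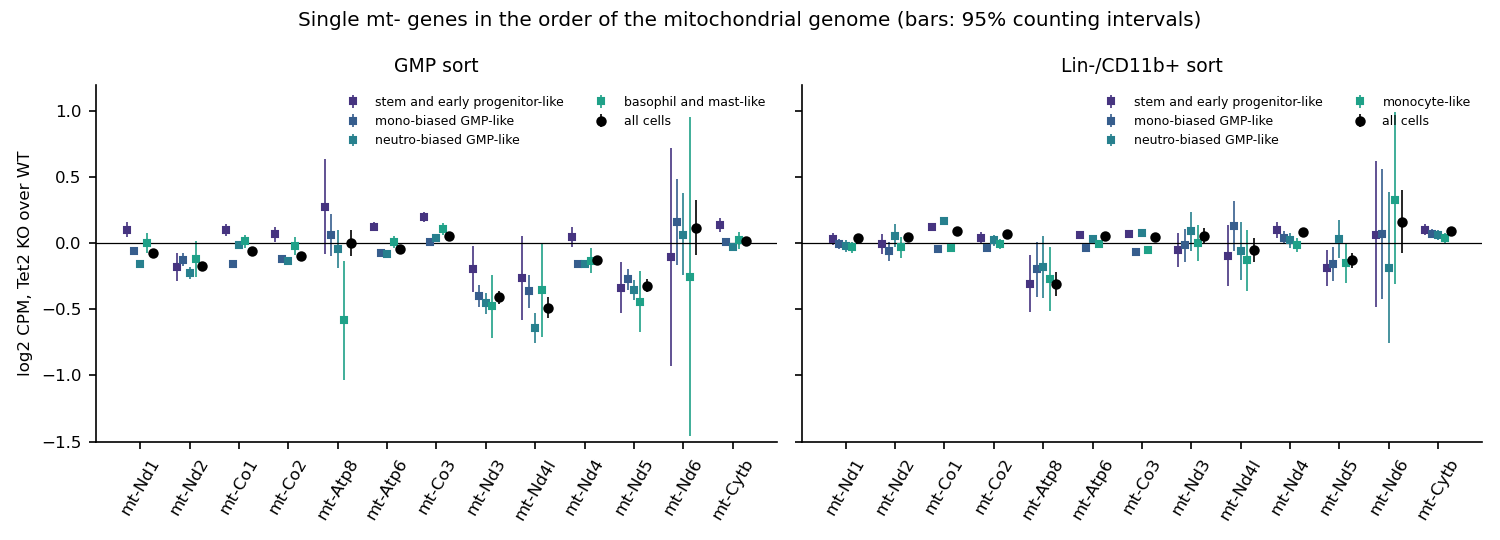
Log2 ratio of *Tet2* KO to WT CPM (y axis) for the 13 mt- genes in their order on the mitochondrial genome (x axis), for the GMP sort (left) and the Lin-/CD11b+ sort (right), by selected cell types and over all cells, with 95% counting intervals. Both panels draw stem and early progenitor-like and both GMP-like classes, with basophil and mast-like (left) or monocyte-like cells (right). Neutrophil-like cells are not drawn, and their mt- genes with at least 100 UMIs had log2 ratios from 0.19 to 0.62. mt-Nd3, mt-Nd4l and mt-Nd5 lie below 0 in the GMP sort, and mt-Nd3 and mt-Nd4l lie near 0 over all cells of the Lin-/CD11b+ sort.

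By subunit class, the mt-Nd genes were lower in *Tet2* KO cells of both GMP-like classes of the GMP sort, and the nuclear accessory subunits were higher in all 5 main comparisons. In the GMP sort, the mono-biased GMP-like class had 5214 CPM of the 7 mt-Nd genes in WT and 4793 CPM in *Tet2* KO cells, a log2 ratio of -0.12 (-0.14 to -0.10). The 28 accessory subunits summed to 8998 and 10451 CPM, a log2 ratio of 0.22 (0.20 to 0.23), and 28 of 28 were above 0. The 7 nuclear core subunits summed to 1116 and 1175 CPM, a log2 ratio of 0.08 (0.04 to 0.11), and 5 of 7 were above 0. In neutro-biased GMP-like cells the summed log2 ratios were -0.19 for mt-Nd genes, 0.0008 for core and 0.13 for accessory subunits, with intervals of -0.21 to -0.18, -0.03 to 0.03 and 0.12 to 0.14. Without the cells at or over 5% mt- UMIs, the mt-Nd ratio was -0.10 in both GMP-like classes. In monocyte-like cells the summed log2 ratios of mt-Nd, core and accessory genes were -0.03, 0.12 (0.06 to 0.18) and 0.16 (0.14 to 0.18), so that core and accessory subunits overlapped. In stem and early progenitor-like cells they were 0.03, 0.01 (-0.05 to 0.07) and 0.05 (0.02 to 0.07). The median over genes was lower for core than for accessory subunits in 4 of these 5 comparisons, with neutrophil-like cells the exception (0.29 and 0.27). Across Nduf genes the log2 ratio had a Spearman's rho of -0.03 to 0.63 with UMIs over the 5 comparisons and of -0.44 to -0.08 with transcript length.

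**Figure D5:**
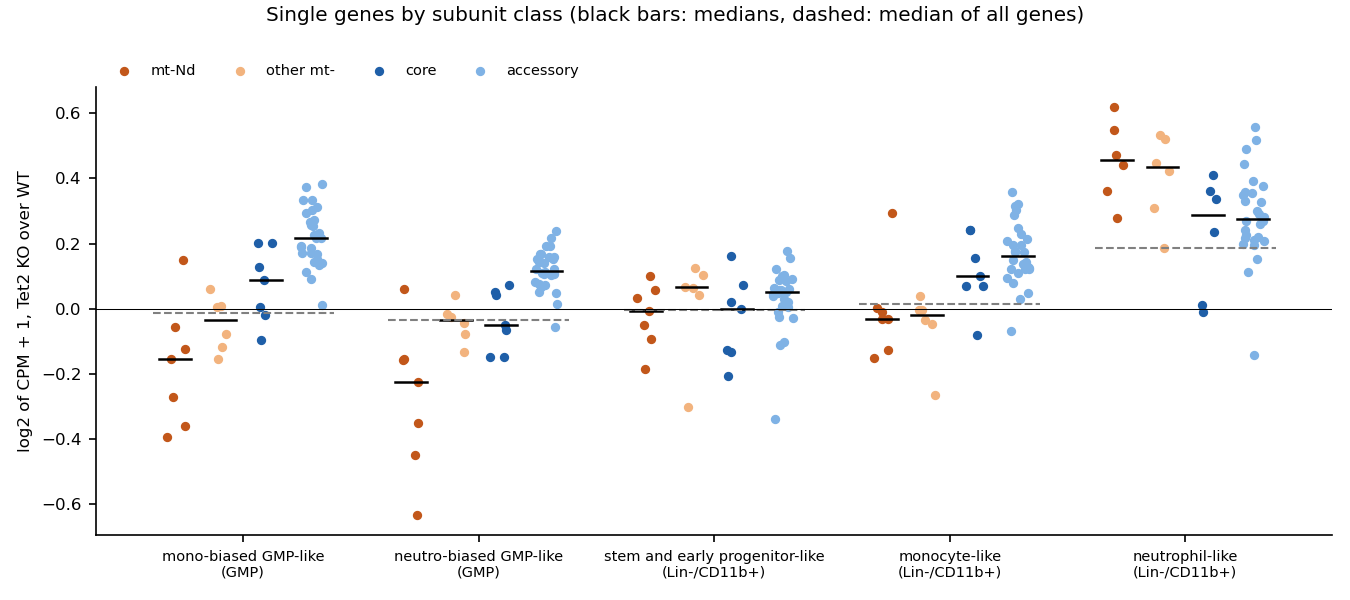
Log2 ratio of *Tet2* KO to WT CPM + 1 (y axis) for each gene with at least 100 UMIs in the 5 main comparisons (x axis), by mt-Nd genes, other mt- genes, nuclear core and nuclear accessory subunits of complex I (Ndufa4 not drawn). Black bars are medians and dashed lines the median of all genes, and accessory subunits had medians from 0.05 to 0.27.

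With at least 100 UMIs in the 2 libraries, genes were counted whose CPM + 1 was at least 25% higher or at least 20% lower in *Tet2* KO cells, the same fold in both directions, and the share of all genes counted stands beside each value. In mono-biased GMP-like cells, 4 of 36 Nduf genes were past this size on the higher side in *Tet2* KO cells (6% of 8264 genes) and 2 of 13 mt- genes on the lower side (9.55%). In neutro-biased GMP-like cells, 0 Nduf genes were past it on the higher side (5.17% of 8670 genes) and 3 of 13 mt- genes on the lower side (8.99%). Over all cells of the GMP sort, 1 Nduf gene was higher (3.04% of 10020 genes) and 2 mt- genes were lower (9.03%). In stem and early progenitor-like cells, 0 members were higher (9.84% of 6384 genes) and 1, *Ndufa9*, was lower (7.63%). In monocyte-like cells, 2 Nduf genes were higher (13.2% of 6683 genes) and 0 members were lower (10.4%). Over all cells of the Lin-/CD11b+ sort, 0 members were higher (13.4% of 10381 genes) or lower (3.37%). Few Nduf genes were past this size, and most lay on the higher side. In mono-biased GMP-like cells 32 of 36 Nduf genes had an interval above 0 and 1 below it, against 16% and 14.4% of all genes with the same minimum. In neutro-biased GMP-like cells the numbers were 26 and 1 (11.5% and 16.6% of all genes), and in monocyte-like cells 25 and 0 (14.5% and 12.3%). In stem and early progenitor-like cells they were 5 and 1 (8.38% and 9.1%). An interval is narrower for a gene with more UMIs, and these shares are over genes of all levels. The median log2 ratio of Nduf genes was 0.20, 0.11, 0.15 and 0.05 in these classes, against -0.01, -0.04, 0.01 and -0.003 over all genes with the same minimum. Of 35 Nduf genes measured in every main comparison, 23 were above 0 in all 5 and 0 were below 0 in all 5, against 15.7% and 5% of the 2661 genes so measured. Comparisons of a sort share their libraries.

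Among accessory subunits, *Ndufa5* was at 258 CPM in WT and 337 CPM in *Tet2* KO mono-biased GMP-like cells, 274 and 324 CPM in neutro-biased GMP-like cells, 219 and 248 CPM in monocyte-like cells, and 107 and 158 CPM in neutrophil-like cells. Its log2 ratios were 0.39 (0.32 to 0.46), 0.24 (0.18 to 0.30), 0.18 (0.05 to 0.30) and 0.56 (0.30 to 0.83), and in stem and early progenitor-like cells it was -0.03 (-0.16 to 0.11). It was among the 3 highest Nduf genes in 3 comparisons. *Ndufb6* and *Ndufs5* had log2 ratios of 0.38 and 0.33 in mono-biased GMP-like cells, at 211 against 274 CPM and 287 against 362 CPM. In monocyte-like cells, *Ndufv3* was at 218 CPM in WT and 279 CPM in *Tet2* KO cells, a log2 ratio of 0.36 (0.24 to 0.48), and *Ndufb3* at 305 and 381 CPM, a ratio of 0.32 (0.22 to 0.43). *Ndufa4*, the complex IV subunit and the Nduf symbol with most UMIs (138771), was at 741 and 928 CPM in monocyte-like cells and at 1281 and 1450 CPM in stem and early progenitor-like cells, where its ratio of 0.18 (0.12 to 0.23) was the highest. *Ndufa2*, *Ndufa3*, *Ndufa13* and *Ndufb7*, the next in UMIs, were above 0 in 5, 5, 5 and 4 of 5 comparisons.

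Among core subunits, *Ndufv1*, which carries the flavin that accepts electrons from NADH, was among the 3 lowest Nduf genes in each of the 5 comparisons. It was at 102 and 102 CPM in WT and *Tet2* KO mono-biased GMP-like cells, 104 and 94.0 CPM in neutro-biased GMP-like cells, 93.2 and 80.5 CPM in stem and early progenitor-like cells, 87.4 and 82.5 CPM in monocyte-like cells, and 39.0 and 39.3 CPM in neutrophil-like cells. Its interval was below 0 in neutro-biased GMP-like cells only, at -0.15 (-0.26 to -0.04). *Ndufs3*, of the quinone-binding module, was at 158 and 156 CPM in mono-biased GMP-like cells, and *Ndufs1*, which carries iron-sulphur clusters, at 33.9 and 39.2 CPM. *Ndufs7*, also of that module, was higher in *Tet2* KO cells of the same class at 220 and 253 CPM, a log2 ratio of 0.20 (0.12 to 0.28). *Ndufs8* and *Ndufv2* were above 0 in 4 of 5 comparisons each. *Ndufs3* was above 0 in 2 and below 0 in 3, with 0.42 (0.02 to 0.82) in neutrophil-like cells. *Ndufs1* was above 0 in 2 and below 0 in 2. It was among the 3 lowest Nduf genes in neutro-biased GMP-like and in stem and early progenitor-like cells. Over whole libraries the 7 core genes summed to log2 ratios of 0.04 (0.02 to 0.07, GMP sort) and 0.09 (0.06 to 0.11, Lin-/CD11b+ sort), against 0.19 (0.18 to 0.20) and 0.15 (0.14 to 0.16) for accessory genes.

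Neutrophil-like cells had both groups of genes higher in *Tet2* KO cells. The mt- level was 12843 CPM in 173 WT cells and 17498.5 CPM in 199 *Tet2* KO cells, a log2 ratio of 0.45 (0.42 to 0.47), and the Nduf level 6851 and 8306 CPM, a ratio of 0.28 (0.24 to 0.31). In this type 29.9% of 2854 genes were at least 25% higher in *Tet2* KO cells and 5.92% at least 20% lower. Beside these shares, 9 of 12 mt- genes and 15 of 35 Nduf genes were higher and 0 of either were lower. The median over all genes was 0.19, and relative to it the mt- and Nduf medians (0.44 and 0.28) were higher by less. With TMM factors the ratios were 0.23 (mt-) and 0.06 (Nduf), and outside granule and S100 transcripts 0.30 and 0.13. Marker levels of this class also differed. The summed neutrophil markers took 377610 CPM in WT and 307403 CPM in *Tet2* KO cells, and those of neutro-biased GMP 2609 and 4543 CPM. *Retnlg*, a gene of later neutrophils, was at 3251 and 1425 CPM and *Elane*, an early granule gene, at 508.5 and 1203 CPM. *Prtn3*, *Mpo*, *Ctsg*, *Fcnb* and *Gstm1* were also higher in *Tet2* KO cells, but *Cebpe* was lower (421 and 360 CPM). The per-cell median of *Elane* was 0 in both libraries, so its sums came from part of the cells. The class was mixed in both libraries. Per cell, summed neutrophil markers had a lower decile of 25.7 (WT) and 173 (*Tet2* KO) UMIs per 10000, against medians of 4841 and 3873. The part of these marker differences in the mt- and Nduf difference was not tested.

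The nuclear genes of complexes III, IV and V had summed levels higher in *Tet2* KO cells in the 5 main comparisons. In mono-biased GMP-like cells the summed log2 ratio was 0.23 for complex III (9 genes), 0.19 for complex IV (15 genes) and 0.18 for complex V (17 genes), and 0.04 for complex II (4 genes), the one complex with no mt- subunit. For complexes III, IV and V it was 0.10, 0.12 and 0.09 in neutro-biased GMP-like cells, 0.06, 0.05 and 0.04 in stem and early progenitor-like cells, 0.16, 0.13 and 0.15 in monocyte-like cells, and 0.22, 0.26 and 0.27 in neutrophil-like cells. For complex II it was -0.01, -0.10, 0.04 and 0.20. The median log2 ratios of single genes in mono-biased GMP-like cells were 0.12, 0.17, 0.18 and 0.06 for complexes III, IV, V and II, and 2 of 9, 1 of 13, 2 of 17 and 0 of 4 measured genes were at least 25% higher (6% of all genes). The 78 mitochondrial ribosome genes had a median of 0.20 there and of 0.06, 0.03, 0.10 and 0.26 in the other main comparisons, with 11 of 77, 1 of 77, 2 of 77, 6 of 75 and 22 of 52 measured genes at least 25% higher, against 6%, 5.17%, 9.84%, 13.2% and 29.9% of all genes. Cytosolic ribosome genes had medians of -0.07, -0.02, 0.01, -0.05 and 0.22 in the order mono-biased GMP-like, neutro-biased GMP-like, stem and early progenitor-like, monocyte-like and neutrophil-like. In neutrophil-like cells the median over all genes was 0.19, and that of complex III (0.15) lay below it.

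Genes that build complex I or express the mitochondrial genome had fewer UMIs. The 15 assembly factors had medians of 0.20, -0.03, -0.01, 0.26 and 0.77 in the same order, the last from 2 genes with enough UMIs. The 22 genes for expression of the mitochondrial genome, such as *Tfam* and *Polrmt*, had medians of 0.09, -0.02, 0.01, 0.11 and 0.10. The 8 biogenesis regulators, among them *Nrf1* and *Gabpa*, had medians of -0.08, -0.02, 0.02, -0.05 and 0.38, the last from 1 gene. Nuclear-retained RNA had 0.05, -0.04, 0.15, -0.16 and 0.07. Haemoglobin genes had 1 gene with enough UMIs, in stem and early progenitor-like cells (0.89). Granule and S100 transcripts had 2.07, 1.55, -0.29, 1.55 and -0.46 from 2 to 5 genes. Over all cells of the GMP sort they summed to 286 CPM in WT and 632 CPM in *Tet2* KO. There, 3 of 4 measured genes were at least 20% lower (9.03% of 10020 genes), with a median of -1.67. Over all cells of the Lin-/CD11b+ sort the sums were 29462 and 21063 CPM, and 5 of 5 genes were at least 20% lower (3.37% of 10381 genes). The sign of the median and of the summed ratio differed in 7 of 71 pairs of list and comparison. In neutro-biased GMP-like cells these included assembly factors, with a summed ratio of 0.05 (0.003 to 0.10), and expression of the mitochondrial genome, with 0.06 (0.02 to 0.09). They also included nuclear-retained RNA there, with 0.19 (0.18 to 0.21).

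Over the 27 sums of library and cell type with at least 50 cells, the summed mt- and summed Nduf CPM had a Spearman's rho of 0.78. These sums share libraries, totals and mice, so rho is a description. The 5 genes outside both groups with the pattern most like the summed mt- CPM, of 7939 compared, were *Selenoh* (0.88), *Cops6* (0.87), *Lsm4* (0.86), *Cox5a* (0.86) and *Pdcd5* (0.86). The summed Nduf CPM had a rho of 0.98 with complex III, 0.97 with complex V, 0.95 with complex IV and 0.94 with the mitochondrial ribosome, against 0.61 with complex II and 0.44 with the cytosolic ribosome.

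Since most Nduf genes lay on the same side of 0, the promoters of 2 of the 3 highest and 2 of the 3 lowest Nduf genes of mono-biased GMP-like cells are shown. They run from 250 bases before to 50 after the start in RefSeq (GRCm38.p6), 5′ to 3′ on the strand of the gene. Capitals mark the core of the NRF1 site (TGCGCA) and of the ETS site bound by GABPA (CCGGAA), searched on both strands. *Ndufa5* (chr6:24527477-24527776, minus strand) and *Ndufb6* (chr4:40279372-40279671, minus strand) come first, then *Ndufs3* (chr2:90904672-90904971, minus strand) and *Ndufv1* (chr19:4012706-4013005, minus strand).
Ndufa5: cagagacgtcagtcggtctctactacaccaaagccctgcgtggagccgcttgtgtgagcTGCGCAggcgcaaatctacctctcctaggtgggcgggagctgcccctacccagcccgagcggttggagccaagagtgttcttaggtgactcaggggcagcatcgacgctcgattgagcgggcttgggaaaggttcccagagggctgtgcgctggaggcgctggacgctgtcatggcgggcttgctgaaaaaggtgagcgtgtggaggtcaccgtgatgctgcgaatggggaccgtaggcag
Ndufb6: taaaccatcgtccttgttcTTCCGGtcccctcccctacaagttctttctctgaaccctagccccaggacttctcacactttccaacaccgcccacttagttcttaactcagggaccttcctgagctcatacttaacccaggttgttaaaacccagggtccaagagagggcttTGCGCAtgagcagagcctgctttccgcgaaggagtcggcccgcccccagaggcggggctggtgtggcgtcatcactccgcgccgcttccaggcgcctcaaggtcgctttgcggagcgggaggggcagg
Ndufs3: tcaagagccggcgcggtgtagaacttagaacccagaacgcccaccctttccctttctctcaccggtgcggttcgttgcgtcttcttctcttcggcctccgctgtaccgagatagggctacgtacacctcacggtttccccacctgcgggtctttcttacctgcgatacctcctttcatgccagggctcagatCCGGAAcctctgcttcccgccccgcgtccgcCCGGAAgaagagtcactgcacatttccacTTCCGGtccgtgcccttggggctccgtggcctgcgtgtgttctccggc
Ndufv1: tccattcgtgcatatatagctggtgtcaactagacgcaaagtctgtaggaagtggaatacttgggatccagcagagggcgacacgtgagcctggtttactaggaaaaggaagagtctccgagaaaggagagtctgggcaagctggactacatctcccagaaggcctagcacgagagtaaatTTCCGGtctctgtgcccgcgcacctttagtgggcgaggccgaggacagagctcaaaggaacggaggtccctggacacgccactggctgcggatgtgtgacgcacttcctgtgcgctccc
Promoters were matched by symbol for 32 of 37 Nduf genes, with the first listed start where there were several. The NRF1 core was in 10 of 32 (31.2%, exact binomial interval 16.1 to 50.01%), against 12.4% of 13135 promoters of genes in the counts. The ETS core was in 10 of 32, against 24.1% of all, and the core of the YY1 site (AAGATGGCG) in 5 of 32 (15.6%), against 2.61%. By subunit class, the NRF1 core was in 10 of 26 accessory (20.2 to 59.4%) and 0 of 5 core promoters (0 to 52.2%). The ETS core was in 6 of 26 (8.97 to 43.6%) and 4 of 5 (28.4 to 99.5%). The 4 promoters shown are examples, and other named genes did not keep their split. *Ndufa9*, the lowest in stem and early progenitor-like cells, had the NRF1 core. *Ndufb3*, among the highest in monocyte-like cells, had neither core. A match is a description of these letters in this window and not a measured site.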

How the data were processed

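The authors deposited raw UMI counts per gene and cell from 4 droplet scRNA-seq libraries, with a table that assigns each cell to its library. The submitters' processing notes name Cell Ranger 3.1.0, Seurat and mm10. Labels and methods name different versions of the 3′ kit. The counts of 8969 cells (at least 5003 UMIs each) and 18695 genes were used as deposited, and 0 per-sample columns were unassigned. Cell types were gated per cell on 12 marker lists by the highest standardised score with at least 3 detected markers. No doublet caller was run, and the 5% of cells with most UMIs were left out as an alternative. The members and all gene lists were chosen with earlier results of these data known.

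UMIs were summed per library and type and scaled to CPM. Intervals at 95% were exact Poisson (CPM), exact binomial (shares), exact conditional binomial (log2 ratios) and, for the ratio of ratios, from the counting error of the 4 sums. Single genes were compared as CPM + 1 with at least 100 UMIs in both libraries together and a size rule of 25% higher or 20% lower, and no p-value was computed, since there was 1 library per group. Types needed at least 50 cells in both libraries. Named genes were all mt- genes, the 5 Nduf genes with most UMIs, the 7 nuclear core subunits, and genes among the 3 highest and 3 lowest Nduf genes of a main comparison. The single values of 1 gene that this rule names are not reported here. Each main comparison used the sort with most cells of the type. The lists were complexes II to V, complex I assembly factors, expression of the mitochondrial genome, biogenesis regulators, mitochondrial and cytosolic ribosome, nuclear-retained RNA, haemoglobin, and granule and S100 transcripts. Alternatives were Leiden clusters built without the members, cells near a cut or with 5% or more mt- UMIs left out, equal weight per cell, thinning to 5000 UMIs, TMM factors, CPM outside mt- UMIs, complex I subunits alone, sums without the gene of each group with the largest CPM difference between genotypes, medians of genes, the other sort, other UMI minimums and CPM + 10. CPM outside granule and S100 transcripts, and complex I subunits alone without cells at or over 5% mt- UMIs, were added after the data were seen. Python 3.11.15, numpy 2.4.6, scipy 1.17.1, pandas 2.3.3, scanpy 1.11.5, leidenalg 0.10.2, R 4.3.3 and edgeR 4.0.16 (TMM factors) were used, and the calculations were tested on simulated data.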

Additional observations from a re-analysis of the deposited data

Results flagged for a closer look

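Several mt- values had opposite signs in the 2 sorts or in 2 cell types of the same sort, and none of these differences was tested, since there was 1 library per genotype and sort. The summed mt- log2 ratio of *Tet2* KO over WT in neutro-biased GMP-like cells was -0.064 in the GMP sort and 0.062 in the Lin-/CD11b+ sort. The difference in the log2 mt- to Nduf ratio was -0.19 in monocyte-like and 0.17 in neutrophil-like cells of the Lin-/CD11b+ sort. Over all cells, 7 mt- genes were below 0 in the GMP sort and above 0 in the Lin-/CD11b+ sort. The median over all genes with at least 100 UMIs had the same signs, -0.047 and 0.083. The libraries also differed in their shares of cell types, whose part was not tested. *mt-Nd3* had log2 ratios of -0.41 and 0.057, *mt-Nd2* of -0.18 and 0.044, and *mt-Nd4* of -0.13 and 0.084. *mt-Nd1* had -0.075 and 0.041, and *mt-Co2* had -0.097 and 0.070. *mt-Co1* had -0.056 and 0.089, and *mt-Atp6* had -0.042 and 0.054.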

How the results depend on the processing

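No paired analysis was possible because each group has 1 library. The summed Nduf level was higher in *Tet2* KO cells under every alternative run, with log2 ratios between 0.15 and 0.22 (mono-biased GMP-like), 0.05 and 0.15 (neutro-biased GMP-like), 0.04 and 0.20 (stem and early progenitor-like), 0.12 and 0.18 (monocyte-like), and 0.06 and 0.29 (neutrophil-like). The summed mt- level of neutro-biased GMP-like cells turned from -0.064 to 0.021 without cells at or over 5% mt- UMIs and to 0.062 in the other sort.

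The difference in the log2 mt- to Nduf ratio varied more. For mono-biased GMP-like cells (-0.28) the value was -0.32 in Leiden clusters, -0.27 without cells at or over 5% mt- UMIs, -0.34 with equal weight per cell, -0.34 after thinning, -0.32 for complex I subunits alone, -0.31 for these without the cells at or over 5%, -0.26 without the gene of each group with the largest CPM difference, -0.32 as a median of genes and -0.18 in the other sort. For neutro-biased GMP-like cells (-0.18) the value was -0.15, -0.093, -0.35, -0.35, -0.31 and -0.21 under the first 6 of these, -0.20 without the cells with most UMIs, -0.24 as a median of genes and 0.0083 in the other sort. In stem and early progenitor-like cells (0.01) it was 0.041 in Leiden clusters, -0.088 in the other sort and -0.015 for complex I subunits alone without cells at or over 5%. In monocyte-like cells (-0.19) it was -0.16 in Leiden clusters, -0.23 without cells at or over 5% and -0.22 for complex I subunits alone without them. In neutrophil-like cells (0.17) it was 0.10 without cells at or over 5%, 0.21 with equal weight per cell, 0.22 after thinning and 0.27 for complex I subunits alone. The causes were not tested. TMM factors and CPM outside mt- UMIs cancel in this ratio. With CPM + 10, 0 in place of 1 Nduf gene was at least 20% lower in stem and early progenitor-like cells and 1 in place of 2 was at least 25% higher in monocyte-like cells. The other sort held too few monocyte-like and neutrophil-like cells for a value. Leiden clusters gave 74.5% of cells the same type. Counting intervals do not cover the spread between mice.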
